A study of Mus musculus with 6 samples.

Results

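Adipoq, Lep, Retn, Cfd, Adig, Aoc3 and Sncg are 7 genes that mark white adipocytes, and they were followed here through 6 lung libraries. They were found by their symbols, each of which matched 1 of the 41388 genes in the count table. The genes were selected on their known place in the white adipocyte, with their levels in these libraries already seen, so their KO and WT values are a description, given without p-values. These libraries compared whole lungs of adult mice at zeitgeber time 7, that is 7 h after lights on. The study also sequenced lungs of other mice at a later zeitgeber time, and those libraries were not used here. WT mice were C57BL/6J, and KO mice carried the Zpbp2 tmZuk allele on the same background, a germline deletion of the 5′ region of Zpbp2 that takes exons 1 to 3 and part of its promoter and is present in every cell. Each genotype had 3 libraries of total RNA, bred and kept in a shared colony. The study used adult males and females, and the labels used here do not give the sex, the age or the litter of a library.

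White adipocytes store triglyceride in a single large droplet and act as an endocrine cell. They secrete adiponectin and leptin, which report the state of the fat store to liver, muscle and brain, together with resistin and the serine protease adipsin, which is factor D of the alternative complement pathway. The lung itself is not a fat depot, but adipocytes lie around the large airways, the hilum and the mediastinum and can be taken along when a lung is removed. In a whole organ, fewer cells of a type and less RNA per cell cannot be told apart.

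Libraries held between 59134950 and 71354388 gene counts. Zpbp2 had 20, 15 and 7 counts in WT1, WT2 and WT3 and 1, 0 and 0 counts in KO1, KO2 and KO3. The 12 lung markers (surfactant, airway, alveolar and endothelial genes) summed to 48380 CPM (counts for each 1000000 counts of a library) or more in every library. KO2 and KO3 were the closest pair: their variance was 1.71 times what counting alone gives for genes of 20 to 200 counts, 1.93 times for 2000 to 20000 counts and 3.32 times above, where the next closest pair, WT1 and WT2 in the first 2 ranges and WT1 and WT3 in the last, had 1.86, 9.32 and 32.4 times. The titles give KO2 and KO3 different codes, and the methods describe 3 mice of each genotype. Because of this closeness they were counted as 1 sample here, so that KO values are a mean of n = 2 (KO1, and the average of KO2 and KO3) against n = 3 for WT. That choice sets the KO SD and the number of genes called over the table, which was 426 with the pair summed and 3402 with 6 separate libraries. WT3 and KO1 held transcripts of squamous epithelium (4921 and 9399 CPM over 14 markers, at most 37.7 in the other libraries) and of skeletal muscle (3743 and 5330 over 10 markers, at most 110.1 elsewhere).

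The sequences just before the start sites show which short promoter elements the hormone genes carry. RefSeq promoters (build GRCm38.p6) were matched for 6 of the 7 genes, all but Aoc3, and the 250 bases before the start were searched on both strands for the C/EBP palindrome TTGCGCAA, the CCAAT box (CCAAT), the TATA box (TATAA), the nuclear receptor half-site AGGTCA and the clock E-box CACGTG. The 3 promoters that held a match are given 5′ to 3′ on the strand of the gene, with the matches in capitals. They lie at chr6:29059971-29060220 (Lep), chr16:23146286-23146535 (Adipoq) and chr2:158502362-158502611 (Adig), all on the plus strand.
Lep: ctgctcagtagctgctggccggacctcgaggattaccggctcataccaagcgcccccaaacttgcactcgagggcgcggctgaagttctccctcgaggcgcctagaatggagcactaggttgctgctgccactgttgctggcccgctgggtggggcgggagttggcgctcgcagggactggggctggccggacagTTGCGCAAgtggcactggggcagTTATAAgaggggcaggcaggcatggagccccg
Adipoq: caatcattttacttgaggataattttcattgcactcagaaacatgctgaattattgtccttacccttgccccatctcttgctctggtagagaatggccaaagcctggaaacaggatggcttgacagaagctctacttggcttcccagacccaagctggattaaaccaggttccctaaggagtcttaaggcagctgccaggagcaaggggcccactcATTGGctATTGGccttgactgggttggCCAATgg
Adig: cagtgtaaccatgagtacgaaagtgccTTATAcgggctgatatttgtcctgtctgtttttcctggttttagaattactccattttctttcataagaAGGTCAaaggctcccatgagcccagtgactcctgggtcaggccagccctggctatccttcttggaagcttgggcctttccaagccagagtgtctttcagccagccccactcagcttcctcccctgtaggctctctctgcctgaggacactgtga
Lep held the C/EBP palindrome 48 to 55 bases before its start, a match found in 0.164% of 32851 promoters of the same length. It also held TATAA on both strands 27 to 32 bases before the start, as overlapping matches in TTATAA, and 22.8% of promoters hold TATAA on either strand. Adipoq held CCAAT 3 times within 34 bases of its start, with 33.8% of promoters holding at least 1. Adig held AGGTCA 149 to 154 bases before its start (14.0% of promoters) and TATAA on the minus strand 219 to 223 bases before it. Retn, Cfd and Sncg held none of the 5 motifs in this window, and no promoter of the 6 held CACGTG (6.02% of promoters). The Sncg window (chr14:34374670-34374919, minus strand) overlapped the gene span given below (chr14:34370274-34374789). Part of it therefore does not lie before the start of that span. These matches describe the letters only.

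The hormone genes were lower in KO lungs, by 3.06- to 10.5-fold. Leptin showed the largest fold of the 7 genes. Lep (ENSMUSG00000059201, chr6:29060220-29073877, GRCm38, plus strand), the satiety hormone made in proportion to fat stores, stood at 12.2, 22.8 and 15.4 CPM in WT1, WT2 and WT3 and at 0.89, 1.98 and 2.58 CPM in KO1, KO2 and KO3. The highest KO library was 4.72-fold below the lowest WT library. WT averaged 16.8 ± 5.44 CPM and KO 1.59 ± 0.985 CPM (mean ± SD, with n = 3 for WT and n = 2 for KO here and throughout). The fitted log2 fold change was -3.39 (SE 0.54), and the KO mean CPM was 9.44% of the WT mean. The KO values rested on 56, 123 and 151 counts.

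Adiponectin, the abundant insulin-sensitising hormone, followed. Adipoq (ENSMUSG00000022878, chr16:23146536-23158028, plus strand) had 73.3, 99.1 and 69.4 CPM in the WT libraries and 6.27, 17.8 and 21.7 CPM in the KO libraries. The lowest WT library was 3.20-fold above the highest KO library. The mean of KO, 13.0 ± 9.53 CPM, stood against 80.6 ± 16.1 CPM in WT, and the fitted difference was 6.15-fold, or -2.62 on the log2 scale (SE 0.54).

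Resistin, a cysteine-rich hormone that in mice is made mainly by adipocytes, differed less. Retn (ENSMUSG00000012705, chr8:3655770-3660110, plus strand) had 15.9, 22.5 and 18.0 CPM in WT and 3.08, 8.89 and 9.33 CPM in KO. The genotypes did not overlap, but the gap between the nearest libraries was 1.71-fold. The log2 fold change was -1.61 (SE 0.49), and KO kept 32.4% of the WT level.

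Cfd, which encodes adipsin, had the smallest fold difference of the 7 genes. Cfd (ENSMUSG00000061780, chr10:79890853-79892655, plus strand) had 244.7, 331.6 and 193.6 CPM in WT and 45.7, 146.5 and 145.7 CPM in KO. KO2 and KO3 came within 1.32-fold of WT3, the narrowest gap between the genotypes among the 7 genes. WT averaged 256.6 ± 69.8 CPM and KO 95.9 ± 70.98 CPM, with a log2 fold change of -1.41 (SE 0.55). Without KO1, which lay 3.20-fold below KO2 and KO3, the difference was 1.76-fold rather than 2.66-fold.

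The 3 genes that are not secreted were 2.905- to 4.16-fold lower in KO. Aoc3 encodes vascular adhesion protein 1, a copper amine oxidase on the surface of adipocytes, smooth muscle and endothelium. Aoc3 (ENSMUSG00000019326, chr11:101330605-101341938, plus strand) had 54.5, 66.3 and 64.3 CPM in WT and 15.1, 13.9 and 15.0 CPM in KO. The lowest WT library was 3.61-fold above the highest KO library, the KO libraries lay within 1.08-fold of each other, and the log2 fold change was -2.06 (SE 0.10) between means of 61.7 ± 6.32 and 14.8 ± 0.430 CPM. It lay on the chromosome of Zpbp2, 2.77 Mb away, and the antisense gene Gm28156, which overlaps it by 2279 bases, had 0 counts in every library.

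Sncg encodes gamma-synuclein, a small protein of peripheral neurons that is also high in white adipocytes. Sncg (ENSMUSG00000023064, chr14:34370274-34374789, minus strand) had 18.7, 20.8 and 19.2 CPM in WT and 6.23, 6.25 and 5.597 CPM in KO. The WT libraries lay within 1.11-fold and the KO libraries within 1.12-fold of each other, and the lowest WT library was 2.998-fold above the highest KO library. Its means were 19.6 ± 1.07 CPM in WT and 6.08 ± 0.214 CPM in KO, and its log2 fold change was -1.68 (SE 0.09).

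Adig encodes adipogenin, a small membrane protein of the adipocyte lipid droplet. Adig (ENSMUSG00000044405, chr2:158502612-158508198, plus strand) had 6.17, 10.9 and 6.13 CPM in WT and 2.24, 3.05 and 3.05 CPM in KO. The log2 fold change was -1.54 (SE 0.34), and the WT libraries spread by 1.77-fold with WT2 on top. No KO library reached the lowest WT library, which was 2.01-fold above the highest KO library.

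**Figure D1:**
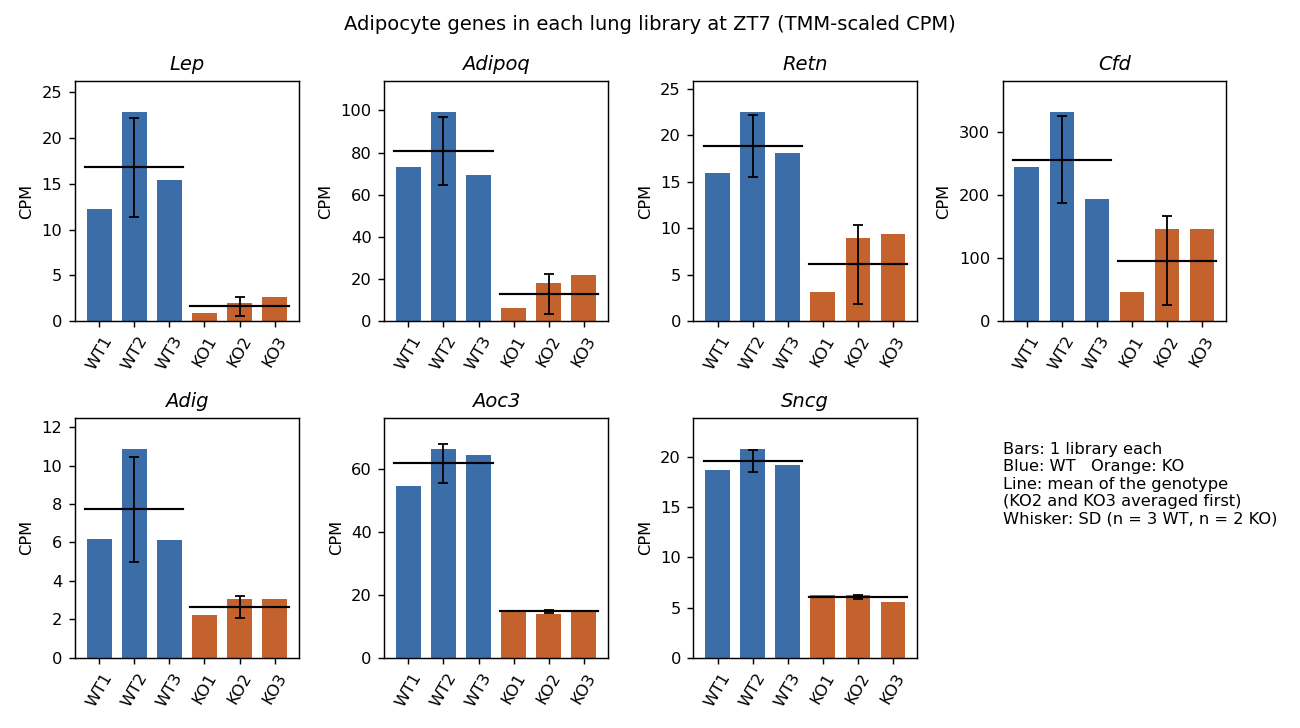
CPM of each of the 7 genes (vertical axes, starting at 0) in the 6 libraries (horizontal axes, 1 bar each, WT blue and KO orange), with the mean of each genotype as a line and its SD as a whisker (n = 3 WT, n = 2 KO, with KO2 and KO3 averaged first). Every KO bar is lower than every WT bar in each panel, and WT2 is the highest bar of each.

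All 7 genes had every KO library below every WT library, a pattern that 20.7% of the 18660 tested genes showed. Their median log2 fold change was -1.68, against 0.02 over all tested genes, and all 7 were at -1 or lower, as were 587 of the 18660 genes. The edgeR quasi-likelihood fit with Benjamini-Hochberg adjustment called 2 of the 7 (Aoc3 and Sncg), where 2.28% of all tested genes were called in either direction and 0.906% were called lower in KO. These counts are a description, because the genes were chosen with this contrast known. The study itself had listed 4 of them (Adipoq, Lep, Aoc3 and Sncg) from these libraries.

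**Figure D2:**
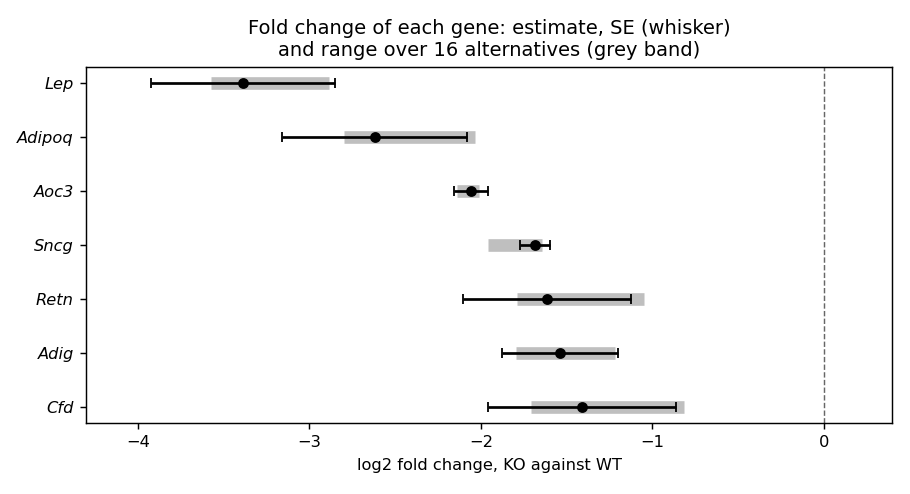
Log2 fold change of KO against WT (horizontal axis) of each of the 7 genes (rows), as a point with a whisker of 1 SE, over a grey band for the range of the estimate across 16 other ways of processing. The points run from -3.39 (Lep) to -1.41 (Cfd), Aoc3 and Sncg have the shortest whiskers, and no band reaches 0.

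The KO libraries were spread widely for some of the genes and narrowly for others. KO1 was below KO2 and KO3 for Adipoq, Lep, Retn, Cfd and Adig, where the average of KO2 and KO3 was 3.15-, 2.57-, 2.96-, 3.20- and 1.36-fold that of KO1. For Aoc3 and Sncg the same ratio was 0.960 and 0.951. Summed over the 7 genes, the libraries held 425.6, 573.9 and 386.0 CPM in WT and 79.5, 198.4 and 203.0 CPM in KO. The SE was 0.49 to 0.55 for Adipoq, Lep, Retn and Cfd, the genes with the widest split between KO1 and the other KO libraries, and 0.09 to 0.10 for Aoc3 and Sncg. KO1 was also the library with the most squamous and skeletal muscle transcripts. The part of those tissues in the hormone levels was not tested. With KO1 left out, Adipoq was 4.10-fold, Lep 7.39-fold and Retn 2.07-fold lower in KO. With WT3 and KO1 both left out, the 7 genes were still lower in KO.

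The genes also differed between the genotypes relative to each other. For each Adipoq read, WT libraries held 0.166, 0.230 and 0.222 Lep reads, and KO libraries 0.142, 0.111 and 0.119, so that leptin was lower in KO relative to adiponectin too. Retn had the opposite order, with 0.217, 0.227 and 0.260 reads per Adipoq read in WT and 0.491, 0.499 and 0.430 in KO. Cfd was also higher by this measure in KO, with 7.29, 8.22 and 6.72 reads against 3.34, 3.35 and 2.79 in WT. Adig had 0.0841, 0.11 and 0.0884 reads per Adipoq read in WT and 0.357, 0.171 and 0.140 in KO. These 4 ratios did not overlap between the genotypes, and the share of all genes with such a separation was not counted. Adipoq itself fell more (log2 fold change -2.62) than Retn (-1.61), Cfd (-1.41) and Adig (-1.54). Their higher ratios in KO therefore restate those smaller fold changes. For Aoc3 and Sncg the ratios of KO2 and KO3 (0.782 and 0.693 for Aoc3, 0.351 and 0.258 for Sncg) overlapped or neared those of WT (0.669 to 0.927 and 0.210 to 0.277), while KO1 stood at 2.41 and 0.992.

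**Figure D3:**
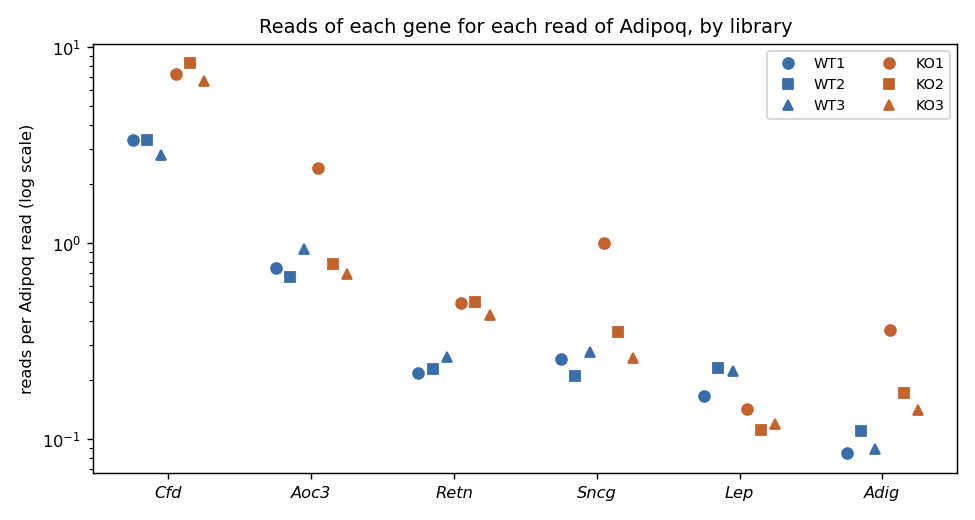
Reads of each gene per Adipoq read (vertical axis, log scale) for the other 6 genes (horizontal axis), with 1 point a library, WT blue and KO orange. Lep lies lower and Retn, Cfd and Adig higher in every KO library than in every WT library, and KO1 stands apart for Aoc3 and Sncg.

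Levels of different genes were set against each other per length, as CPM for each kilobase of exon (RPKM). In WT, Cfd led with 278.3 ± 75.7 RPKM, followed by Adipoq with 58.4 ± 11.7 and Sncg with 23.0 ± 1.26 RPKM. Aoc3 (13.4 RPKM), Retn (11.9) and Adig (9.53) followed, where Aoc3 and Retn overlapped between libraries, as did Retn and Adig. Lep was last with 5.01 ± 1.62 RPKM, below every library of Adig. In KO the order began with Cfd (104.0 RPKM) and ended with Lep (0.473 RPKM) again, Adipoq (9.42 RPKM) overlapped Sncg (7.13 RPKM), and Aoc3 was in the sixth rather than the fourth place, though Retn, Adig and Aoc3 overlapped there in turn.

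Genes on which the hormones act were measured next. Of 10 adipokine receptors and signalling genes (adiponectin and leptin receptors, CAP1 as a resistin receptor, and the leptin signal transducer STAT3 among them) edgeR called 0 in either direction, with a median log2 fold change of -0.06. At an unadjusted p of 0.05, 5 of the 10 passed, where 27.3% of all tested genes did, and DESeq2 called 4, where it called 21% of all. Cap1 had 288.8 ± 6.76 CPM in WT and 294.8 ± 12.7 CPM in KO, and Stat3 had 261.0 ± 15.7 and 250.8 ± 0.279 CPM. Lepr, the leptin receptor, had 93.8 CPM in WT and 74.8 CPM in KO (edgeR adjusted p = 0.0513).

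Adipsin cleaves factor B when it is bound to C3b. The median log2 fold change of the 10 alternative complement genes other than Cfd was 0.01. C3 itself had 1117, 1347 and 1288 CPM in WT and 1088, 1697 and 1674 CPM in KO, with overlapping genotypes.

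Close relatives of the 7 genes were read in the same fit. Of 11 tested paralogues, edgeR called 0, 2 passed at an unadjusted p of 0.05 (27.3% of all genes), DESeq2 called 1 (21% of all genes), and the median log2 fold change was 0.10. Retnla, the resistin-like gene made in the lung, had 68.4 ± 15.6 CPM in WT and 72.3 ± 8.88 CPM in KO, and C1qtnf7, a relative of adiponectin, had 51.8 ± 0.232 and 51.5 ± 4.12 CPM. Aoc2, the neighbour and paralogue of Aoc3, had 5.61 ± 0.229 CPM in WT and 6.00 ± 0.578 CPM in KO.

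The transcription factors that build an adipocyte followed. edgeR called 0 of 13, 6 passed at an unadjusted p of 0.05 (27.3% of all genes), DESeq2 called 5 (21% of all genes), and the median log2 fold change was -0.07. Srebf1 and Rxra, highest of the 13 by CPM, work in many lung cells and had 168.4 and 131.9 CPM in WT against 162.8 and 130.7 CPM in KO. Pparg, the master regulator of fat cells, which alveolar macrophages also use, had 20.97 ± 7.12 CPM in WT and 11.4 ± 1.92 CPM in KO (edgeR adjusted p = 0.149). The 13 estimates, 9 of them negative, ran from -2.36 for Ebf2 to 0.87 for Cebpb, and Cebpb, with 34.2 ± 7.05 CPM in WT and 62.4 ± 8.37 CPM in KO, was higher in every KO library than in every WT library.

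Of 20 genes for storing and releasing fat, 5 were called lower in KO by edgeR and 0 higher, where 0.906% of all tested genes were called lower. All 20 had a negative estimate, 18 passed at an unadjusted p of 0.05 (27.3% of all genes), and the median log2 fold change was -1.28. The study had itself picked 9 of these 20 from the same libraries, so the list is not independent evidence of its direction. Lpl, lipoprotein lipase, fell from 365.7 ± 1.45 CPM to 177.1 ± 1.56 CPM (log2 fold change -1.04, edgeR adjusted p = 0.0251). Pck1, which makes the glycerol backbone for triglyceride in fat, fell from 106.6 to 7.20 CPM (-3.87, edgeR adjusted p = 0.0446). The droplet coat gene Plin4 fell from 120.5 to 32.4 CPM (-1.89, edgeR adjusted p = 0.0446), and Lipe, hormone-sensitive lipase, fell from 139.0 to 73.8 CPM (-0.91, edgeR adjusted p = 0.045).

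Of 14 tested genes for other secreted adipokines, edgeR called 1 higher in KO and 0 lower (2.28% of all genes were called in either direction), and 6 passed at an unadjusted p of 0.05 (27.3% of all genes). It was Lcn2, lipocalin 2, an iron-siderophore-binding protein that epithelium and neutrophils also make, with 72.3 ± 3.52 CPM in WT and 116.0 ± 2.06 CPM in KO (log2 fold change 0.69, edgeR adjusted p = 0.0446). The median of the 14 was -0.07. The calls in these lists, in whichever direction, rested on all the WT libraries: without WT1, without WT2 or without WT3, edgeR called 0 of the 18278 to 18445 genes tested (3346 to 4193 at an unadjusted p of 0.05), while with KO2 and KO3 entered as separate libraries it called 18 of the 20 lipid genes and 18.9% of all genes. With a length and GC offset no gene of these lists was called. Without KO1 the KO group held 1 sample, so the calls of that fit are not given.

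The pattern of the 7 genes over the 6 libraries was compared with that of 15152 genes of at least 1 CPM on average. Likeness was the root mean square difference in log2(CPM + 0.1), centred on each gene's mean, from the median of the 7 genes. The 10 nearest genes were Apol6 (0.175), Cidec (0.176), Mrap (0.201), B3galt2 (0.242), Tshr (0.262), Orm1 (0.289), Tpsb2 (0.298), Fabp4 (0.299), Gm4759 (0.33) and Nrg4 (0.331), where the median over all genes was 1.07. Cidec encodes a protein that fuses fat droplets, Fabp4 the fatty acid binding protein of adipocytes, Mrap a partner of the melanocortin 2 receptor and Tshr the thyrotropin receptor. Fabp4 had 221.1, 373.5 and 207.1 CPM in WT and 25.4, 68.3 and 68.8 CPM in KO, with KO1 the lowest and WT2 the highest library. Apol6, Cidec, Mrap and Fabp4 were among the genes that the study had picked from these libraries.

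**Figure D4:**
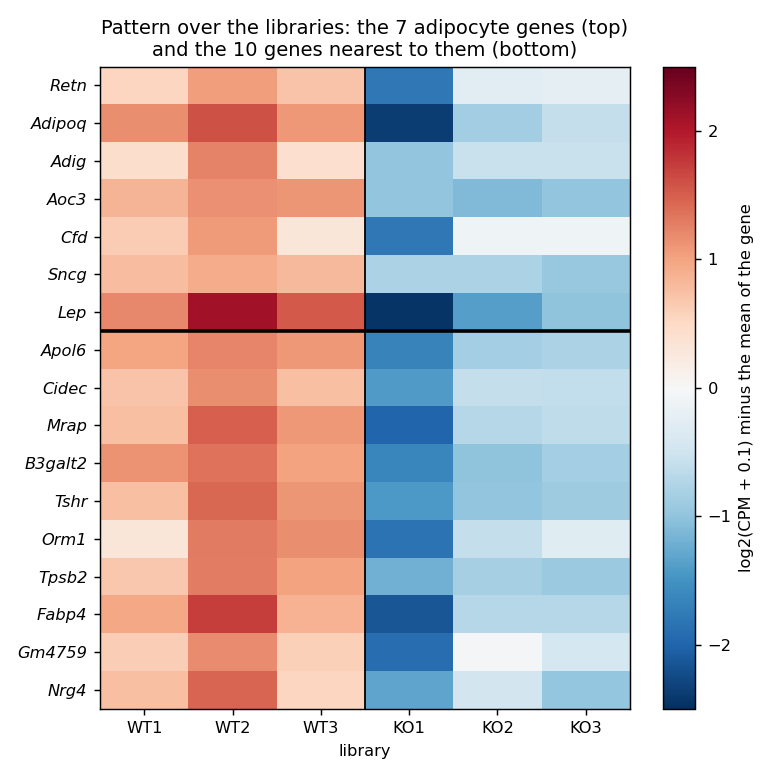
Log2(CPM + 0.1) minus the mean of the gene, as colour from blue (low) to red (high), in the 6 libraries (columns) for the 7 white adipocyte genes (rows above the line) and the 10 genes nearest in pattern (rows below it). In each of the 10 rows below the line WT2 is the highest library and KO1 the lowest, as in the median of the 7 genes, which runs from 1.14 to -1.78.

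Markers of other cell types that can be taken with a lung were summed in each library. Brown adipocyte markers (11 genes) held 224.3, 328.4 and 130.9 CPM in WT and 83.5 to 91.3 CPM in KO, where 2 or 3 of the 11 were at 3 counts or fewer. Prdm16 alone gave 37.7, 52.8 and 49.4 CPM of the KO sums, and its means of 46.6 CPM in WT and 44.4 CPM in KO came from overlapping libraries. Ucp1, the defining brown fat gene, had 49.5, 132.0 and 6.27 CPM in WT and at most 0.137 CPM in KO. WT2 was thus the highest library both for Ucp1 and for each of the 7 white adipocyte genes, whereas WT3, with the least Ucp1 of the WT libraries, had 69.4 CPM of Adipoq. Cardiomyocyte markers (12 genes) held 3272 to 7929 CPM in WT and 1447 to 2115 CPM in KO, and the atrial gene Bmp10 was at 0 in all KO libraries and in WT2. Adipose progenitor markers (7 genes) held 1442 to 1515 CPM in WT and 1279 to 1487 CPM in KO. Within that list, Pdgfra, Pi16, Dlk1 and Dpp4 were lower in every KO library than in every WT library (20.7% of all tested genes were), as with Pdgfra at 350.8 ± 4.82 CPM in WT and 271.0 ± 38.0 CPM in KO, while Ly6a was higher in every KO library. Mesothelial markers (8 genes) held 356.8 to 385.7 CPM in WT, 325.6 CPM in KO1 and 520.7 and 523.3 CPM in KO2 and KO3. Peripheral neuron markers (9 genes), listed because Sncg is also a neuronal gene, held 61.2 to 66.5 CPM in WT and 62.3 to 79.4 CPM in KO, with 0, 5 and 4 of the 9 at 3 counts or fewer in KO1, KO2 and KO3. Stmn2 alone gave 48.9 to 68.6 CPM of that sum, and Prph, Dbh, Tubb3, Nefl and Nefm were each lower in every KO library than in every WT library (20.7% of all tested genes were), and the median log2 fold change of the 8 tested markers was -1.17. Tubb3, for example, had 2.84, 2.02 and 1.83 CPM in WT and 1.24, 0.371 and 0.856 CPM in KO. Smooth muscle markers (9 genes), listed because Aoc3 is made there too, held 1054 to 1678 CPM in WT and 1228 to 1976 CPM in KO. Des, which skeletal muscle also expresses, gave 461.1 CPM of this sum in WT3 and 664.4 CPM in KO1. Myocd was lower in every KO library than in every WT library, with means of 6.79 CPM in WT and 2.58 CPM in KO, and Tagln was higher in every KO library, with means of 214.9 and 271.6 CPM. Macrophage and neutrophil markers (9 genes) held 309.1 to 343.4 CPM in WT and 254.5 to 301.2 CPM in KO. Lung markers were at most 51970 CPM in WT and 67620 to 76490 CPM in KO. The part of these cell types in the levels of the 7 genes was not tested.

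**Figure D5:**
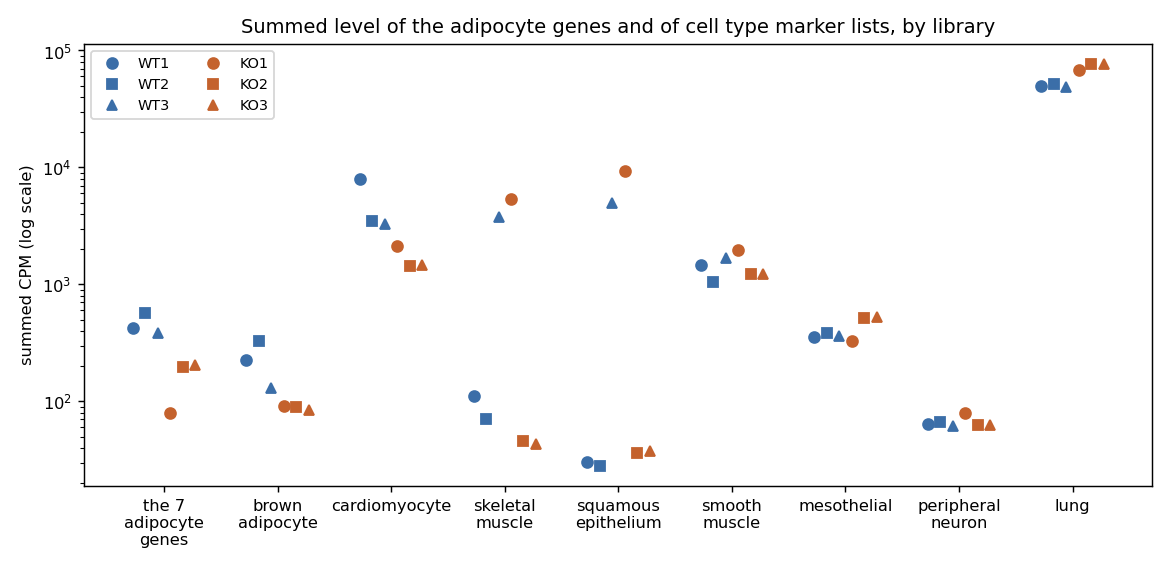
Summed CPM (vertical axis, log scale) of the 7 white adipocyte genes and of the marker genes of 8 cell types or tissues (horizontal axis), with 1 point a library, WT blue and KO orange. The white adipocyte, brown adipocyte and cardiomyocyte sums are lower in every KO library than in every WT library, and the squamous and skeletal muscle sums are high in WT3 and KO1.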

How the data were processed

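Lung total RNA was extracted with Trizol and RNeasy. Per the submitters' processing notes, the authors used Trimmomatic (version 0.36), STAR (2.5.3a), Picard (2.9.0) and HTSeq (0.6.0) with mouse build mm10, and deposited raw read counts per gene; annotation release and strand setting are not given in the sources used here. All 6 sample columns were used. The 7 genes and every gene list were chosen with earlier results of these data known. KO2 and KO3, whose variance was 1.71 to 3.32 times that of counting alone, were summed into 1 sample for fitting. Counts were tested with edgeR 4.0.16 (R 4.3.3; TMM, filterByExpr, quasi-likelihood, two-sided, Benjamini-Hochberg over 18660 genes, threshold 0.05). The labels do not say that libraries came from separate litters or days, so p-values measure only the spread between these samples. CPM used TMM-scaled library sizes, and RPKM used exon lengths of the GRCm38 annotation, which held 97.5% of the identifiers. Each SE was the absolute log2 fold change divided by the square root of the quasi-likelihood F statistic. Outside the 7 genes, genes were named by rule: in each pathway list the called genes, at most 4 by smallest adjusted p, otherwise the 2 with the highest mean CPM; in each cell type list the 2 with the highest mean CPM and defining markers at or near 0; and the 10 nearest in pattern. Lepr, C3, Aoc2, Pparg, Ebf2, Cebpb, Myocd, Tagln and the named neuronal and adipose progenitor markers were added after their values were seen, as were Car3, Slc2a4 and Dgat2. Alternatives were no filter, 10 counts in every library, other scalings, the edgeR exact test, DESeq2 1.42.0, a length and GC offset, separate libraries, and libraries left out. Some genes that the rule would name are not reported here.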

Additional observations from a re-analysis of the deposited data

How the results depend on the processing

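The median log2 fold change of the 7 white adipocyte genes ran from -1.96 to -1.64 over 16 alternatives, and none of the 7 changed direction under any of them. The number of the 7 that were called ran from 0 to 6 over the fits that kept at least 2 samples of each genotype. The number of called genes, 426 in the fit described, was 3402 with the 6 libraries kept separate, 909 with 10 counts in every library, 209 with the edgeR exact test, 3919 with DESeq2, 6 with a length and GC offset and 2256 without WT3 and KO1. Leaving out 1 library other than KO1 gave 0 to 418 called genes. Each WT library in turn gave 0 (3346 to 4193 genes at an unadjusted p of 0.05). Fits without KO1 held 1 KO sample, so only their fold changes are given. Scaling by library size alone put 61.8% rather than 39.7% of 306 and 426 calls on the lower side. For the adipocyte lipid genes, 5 called became 18 with separate libraries, 8 with 10 counts in every library and 12 with the exact test. They became 18 with DESeq2, 0 with the length and GC offset, and 0 to 5 with 1 library other than KO1 left out. The fold changes of all genes followed exon length (Spearman rho -0.334 over 18524 genes, a description across genes), and the offset moved Sncg from -1.68 to -1.96. The highest adjusted p of the called list genes over the 16 alternatives was 0.189. Without KO1, Adipoq went from 6.15- to 4.10-fold and Cfd from 2.66- to 1.76-fold. The cause of these shifts was not tested.

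The genotypes share replicate numbers only: deviations of same-numbered libraries correlated at -0.543, 0.691 and -0.756. With the 6 libraries kept separate, adding a replicate block gave 1157 called genes and 11 called lipid genes.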

Other observations

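A few fat genes had the KO libraries in the opposite order to the hormones. Car3, carbonic anhydrase 3, had 358.8, 485.8 and 400.8 CPM in WT, 187.8 CPM in KO1 and 83.2 and 84.3 CPM in KO2 and KO3. Slc2a4, the insulin-regulated glucose transporter GLUT4, had 47.2, 49.3 and 47.95 CPM in WT, 38.0 CPM in KO1 and 14.2 and 13.7 CPM in KO2 and KO3. Dgat2, which makes triglyceride, had 90.3 to 129.5 CPM in WT, 61.3 CPM in KO1 and 27.2 and 27.7 CPM in KO2 and KO3. Skeletal muscle, which also expresses Car3 and Slc2a4, had markers at 5330 CPM in KO1 and at 45.7 and 43.6 CPM in KO2 and KO3. WT3 also held those markers, at 3743 CPM against 110.1 and 70.0 CPM in WT1 and WT2, and its Car3, Slc2a4 and Dgat2 lay between those of WT1 and WT2. The part of muscle in these levels was not tested. Adipoq had 6.27 CPM in KO1 and 17.8 and 21.7 CPM in KO2 and KO3. All 3 genes belong to the lipid list above, and these 3 were picked after their values were seen.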
